A study of Mus musculus with 16 samples.

Results

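The genes described here encode plasma proteins of coagulation and complement that the liver makes and secretes. The list held 39 genes, 24 of coagulation and 15 of complement, and each was matched through the symbol in the array's platform annotation. For 37 of them a probe was found among the 25697 probes of the table. For a gene with several probes, the probe with the highest mean intensity over the 16 arrays was used. The Fgb probe, for the beta chain of fibrinogen, had a mean intensity of 150.4 and was not well above background on any array, so it was not tested. That left 36 genes, 22 of coagulation and 14 of complement, among 11338 tested features (1 probe per gene, or a probe with no symbol), and all 36 were detected on 16 of 16 arrays. C3 and Cpb2 were not analysed here.

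Liver total RNA of male FVB mice, 10 weeks old, was measured on Illumina mouse bead arrays with 1 colour. Livers with the label genotype LKB1 lox/lox, which the titles describe as liver-specific knockouts, are called KO here, and wild-type livers WT. LKB1 is a kinase, encoded by Stk11, that activates the energy sensor AMPK. The KO groups were KO with AICAR, a nucleoside whose phosphorylated form activates AMPK, KO with its vehicle saline, KO with CCl4, a liver toxicant, and KO with its vehicle mineral oil. The 4 WT groups received the same agents, and each of the 8 groups had 2 arrays. The sources used here do not give doses, times after treatment, the Cre driver or slides. Arrays of 1 group are labelled biological replicates but are not tied to separate animals, so a p-value here reflects only how far these samples spread, which may be technical.

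The liver parenchyma is the main source of most clotting factors, of their plasma inhibitors and of many complement components. Clotting runs through a cascade of serine proteases that ends in the cleavage of fibrinogen by thrombin. Complement is activated through the classical, lectin and alternative pathways, which meet at C3 and end in the pore of the membrane attack complex. Factors such as HNF1, HNF4 and C/EBP bind the promoters of many of these genes, and STAT3 acts on those that respond to interleukin 6 in the acute phase.

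Values are log2 of the background-corrected, quantile-normalized signal, called the log2 signal, and differences are KO minus WT in log2 units. The median intensity of an array lay between 172.4 and 213.7, and 12233 to 13730 probes were detected. The 2 KO saline arrays differed by no more than noise: over 1904 genes with 2 probes, the differences seen by the 2 probes had a correlation of 0.0137 (95% interval -0.0313 to 0.0586), while the lowest of the other 119 pairs of arrays had 0.472. They were therefore averaged and counted as 1 sample, which left 15 samples. Stk11 in KO livers stood at 9.08 and 9.30 with saline, 9.54 and 9.23 with AICAR, 9.10 and 9.03 with mineral oil, and 9.34 and 8.94 with CCl4. Stk11 in WT livers stood at 10.38 and 10.26 with saline, 10.32 and 10.33 with AICAR, 10.25 and 10.20 with mineral oil, and 10.07 and 10.04 with CCl4. The genotypes did not overlap, and the mean difference over the 4 agents was -1.04 ± 0.10 (SE), with a limma adjusted p of 0.00015. The 8 hepatocyte markers measured of 10 had a summed log2 signal of 18.23 to 18.41 in KO and 18.23 to 18.55 in WT, and 0 of 8 passed the test between genotypes (limma; 2 at an unadjusted p under 0.05). That sum is carried by probes near the top of the scale, Ttr, Apoa1, Ahsg and Serpina1b, with log2 signals of 15.60 to 16.10 on all arrays, so it cannot show a difference in hepatocyte signal well, and the Alb probe read only 5.23 to 6.97.

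KO livers had less RNA for a small set of these genes. Averaged over the 4 agents, 7 of the 36 fell in KO and 0 rose at a limma adjusted p under 0.05. Over all tested features that call was made for 9.22% in either direction, with 4.76% lower and 4.45% higher. The 7 were F11, C6, Serping1, C9, C4b, Fga and F13b, and F11 and C6 had less than 50% of the WT signal. The other 29 did not pass, among them all 4 vitamin K dependent clotting proteases. In bulk liver, fewer cells that make a transcript and less of it per cell cannot be told apart.

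Of the 36 genes, 30 had a negative KO minus WT difference, with a median of -0.13, against a median of -0.02 and 52.4% negative over all tested features. At an unadjusted p under 0.05, 15 of 36 passed, against 24.4% of all tested features. The negative sign of the small differences depended on the scaling: with each array centred on its median in place of quantile normalization, 21 of 36 were negative, the median was -0.05, and only F11 and C6 of the 7 passed. With quantile normalization, coagulation genes had a median of -0.12 with 4 of 22 called, and complement genes a median of -0.29 with 3 of 14 called. Over all tested features 9.22% were called in either direction. With median centring the only calls left were F11 among the coagulation genes and C6 among the complement genes.

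**Figure D1:**
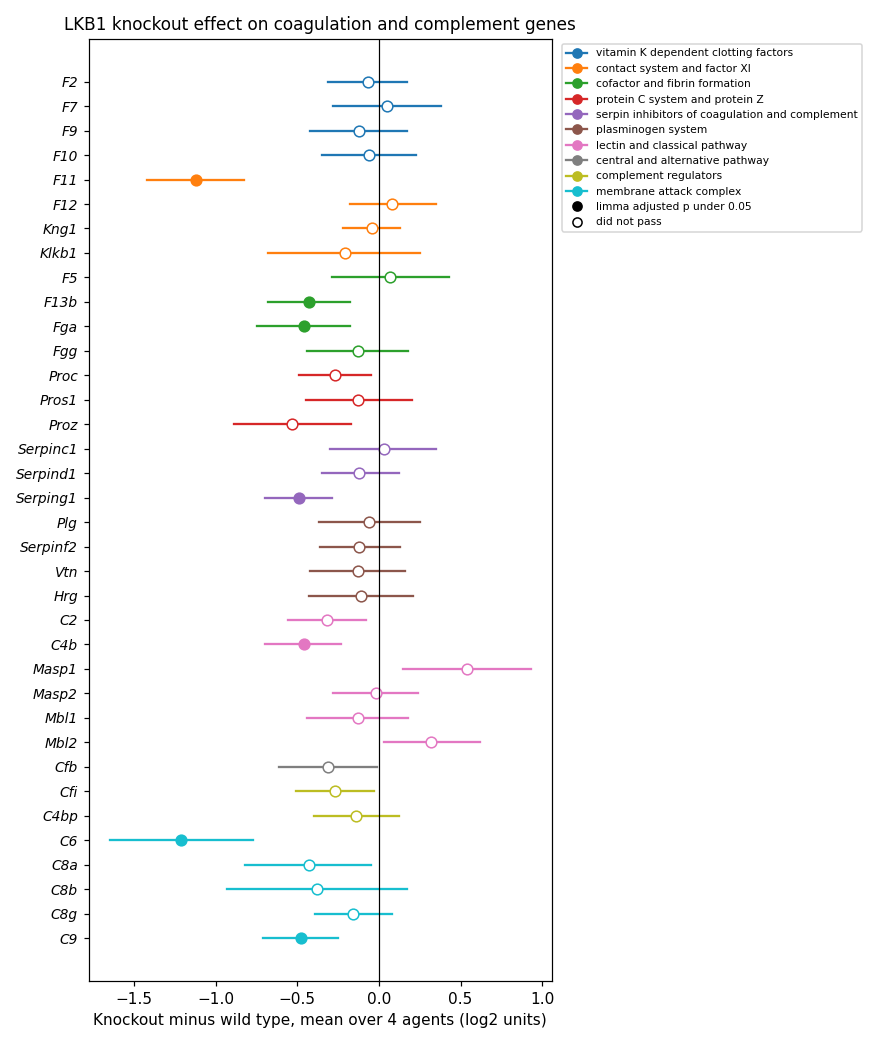
KO minus WT difference of each gene, averaged over the 4 agents (log2 units, x axis), with 95% intervals, coloured by role; filled points passed a limma adjusted p of 0.05. The 7 filled points all lie below 0, and C6 (-1.21) and F11 (-1.12) lie apart from the other genes.

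Promoter sequences on GRCm38.p6 are shown for 4 of the genes that fell, written 5′ to 3′ along the gene. Each runs from 250 bases before to 50 bases after the start used in the promoter set. For Fga that is the RefSeq gene start. For F11, C6 and F13b it lies inside the RefSeq gene, which begins at 45262055, 4727067 and 139501547. F11 and C6 had the greatest differences, and Fga and F13b hold the HNF1 letters (GTTAAT), which are only a part of a full HNF1 site. Capitals mark a match on either strand to these HNF1 letters, a STAT3 site (TTCCNGGAA) or the acute phase element (CTGGGAA).
F11, chr8:45261982-45262281, minus strand: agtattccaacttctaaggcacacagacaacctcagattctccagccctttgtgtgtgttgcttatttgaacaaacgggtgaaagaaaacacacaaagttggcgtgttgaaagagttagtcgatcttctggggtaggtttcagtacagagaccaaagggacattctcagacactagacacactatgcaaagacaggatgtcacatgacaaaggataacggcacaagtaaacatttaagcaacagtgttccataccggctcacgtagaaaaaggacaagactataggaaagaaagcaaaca
C6, chr15:4726960-4727259, plus strand: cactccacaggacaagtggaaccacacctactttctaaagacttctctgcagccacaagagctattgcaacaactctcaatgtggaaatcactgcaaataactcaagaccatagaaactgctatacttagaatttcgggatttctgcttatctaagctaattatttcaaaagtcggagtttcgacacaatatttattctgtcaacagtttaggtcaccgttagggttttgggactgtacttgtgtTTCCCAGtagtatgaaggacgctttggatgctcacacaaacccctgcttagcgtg
Fga, chr3:83025903-83026202, plus strand: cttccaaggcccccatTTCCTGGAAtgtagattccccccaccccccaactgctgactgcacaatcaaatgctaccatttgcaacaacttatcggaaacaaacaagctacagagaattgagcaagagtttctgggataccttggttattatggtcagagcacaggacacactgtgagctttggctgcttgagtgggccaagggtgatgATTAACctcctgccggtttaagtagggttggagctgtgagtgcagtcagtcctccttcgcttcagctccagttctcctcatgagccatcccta
F13b, chr1:139501457-139501756, plus strand: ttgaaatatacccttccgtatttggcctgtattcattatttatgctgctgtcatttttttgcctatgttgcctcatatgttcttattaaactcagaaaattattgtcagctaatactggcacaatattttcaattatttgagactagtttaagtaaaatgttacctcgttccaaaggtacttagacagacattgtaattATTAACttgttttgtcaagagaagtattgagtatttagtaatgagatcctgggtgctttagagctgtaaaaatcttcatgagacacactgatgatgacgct
The HNF1 letters begin 51 bases before the start used for F13b and 43 before that of Fga, on the strand opposite to the gene. Fga also holds a STAT3 match that begins 234 bases before its start. C6 holds an acute phase match that begins 5 bases before the start used for C6. The F13b and C6 matches lie downstream of the RefSeq gene starts. The table held promoters of 27 of the 36 genes, and 8 of them (29.6%) had the HNF1 letters, against 7.1% of all 32851 promoters of the same length. Here and below, the share of the 27 counts genes, while the share of all counts promoters. Those 8 were C4bp, C8a, C8b, F13b, F2, Fga, Proz and Vtn, of which only F13b and Fga passed the KO test. The STAT3 letters stood in 2 of 27 (7.41%), against 1.15% of all, and the acute phase letters in 5 of 27 (18.5%), against 11.1%. The HNF4 letters (CAAAGTCCA) stood in 0 of 27, against 0.475% of all promoters, and the palindromic C/EBP letters (TTGCGCAA) in 0 of 27, against 0.183%. The looser C/EBP letters (TTGCGNAA), which the palindrome also matches, stood in 1 of 27 (3.7%), Serpinc1, against 0.798%. The F11 window, and that of C9, held none of these letters.

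The contact system starts clotting on charged surfaces, and factor XI, encoded by F11, is the protease through which it activates factor IX. F11 in KO livers stood at 11.27 and 11.27 with saline, 11.23 and 11.03 with AICAR, 11.20 and 11.45 with mineral oil, and 11.30 and 11.52 with CCl4. F11 in WT livers stood at 12.91 and 12.22 with saline, 11.71 and 11.86 with AICAR, 12.64 and 12.92 with mineral oil, and 12.69 and 12.33 with CCl4. Every KO array was below every WT array, which held for 4 of the 36 genes and for 0.961% of all tested features. Signal averaged 11.28 in KO and 12.41 in WT, so KO livers had 45.9% of the WT signal, with a difference of -1.12 ± 0.13 (SE; 95% interval -1.42 to -0.83; limma adjusted p = 0.00052). The other F11 probes gave -1.13 and -1.10. The KO arrays lay close together under all agents, whereas the WT arrays with AICAR were the lowest of the WT arrays.

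Klkb1, which encodes plasma prekallikrein, lies next to F11 with no protein-coding gene between them in RefSeq. Its KO minus WT difference was -0.21 ± 0.21 (adjusted p = 0.59), and the genotypes overlapped. F12, which encodes factor XII, the protease that activates factor XI, had 0.08 ± 0.12 (adjusted p = 0.72). Kng1, which encodes kininogen, the cofactor that carries prekallikrein and factor XI, had -0.04 ± 0.08, but its probe was near the top of the scale on every array, as described with the saturation values.

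The vitamin K dependent proteases thrombin (F2), factor VII (F7), factor IX (F9) and factor X (F10) showed no call. Their KO minus WT differences lay between -0.12 (F9) and 0.05 (F7), with adjusted p of 0.63 to 0.88. The widest of the 95% intervals was that of F7, -0.28 to 0.38, so changes of the size seen for F11 lie outside all of these intervals. With median centring 1 of the 4 was negative, in place of 3 of 4. F5, which encodes the cofactor factor V, had 0.07 ± 0.16 (95% interval -0.29 to 0.43).

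Fibrinogen is a dimer built from alpha, beta and gamma chains, and factor XIII cross-links the fibrin made from it. Fga in KO livers stood at 15.13 and 15.07 with saline, 15.54 and 14.97 with AICAR, 15.06 and 15.11 with mineral oil, and 15.82 and 15.23 with CCl4. Fga in WT livers stood at 15.68 and 15.64 with saline, 15.56 and 15.79 with AICAR, 15.67 and 15.42 with mineral oil, and 15.95 and 15.94 with CCl4. Fga, the alpha chain gene, was lower on 6 of 8 KO arrays than on any WT array, and the other 2, KO AICAR replicate 1 and KO CCl4 replicate 1, overlapped WT. Its difference was -0.46 ± 0.13 (72.5% of WT; limma adjusted p = 0.049), and a second Fga probe gave -0.57. Fgg, the gamma chain gene next to it, averaged 14.26 in KO and 14.39 in WT and did not pass (-0.13 ± 0.14; adjusted p = 0.63).

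F13b in KO livers stood at 12.04 and 11.92 with saline, 12.09 and 12.14 with AICAR, 12.61 and 12.07 with mineral oil, and 12.41 and 12.24 with CCl4. F13b in WT livers stood at 12.72 and 12.67 with saline, 12.28 and 12.47 with AICAR, 12.67 and 13.05 with mineral oil, and 12.53 and 12.57 with CCl4. F13b encodes the B subunit that carries factor XIII in plasma. On 6 of 8 KO arrays it was below all WT arrays, with a difference of -0.43 ± 0.11 (74.2% of WT; limma adjusted p = 0.040). The Fga and F13b calls were narrow: each was lost in 12 of the 16 fits that left out 1 array, where the adjusted p reached 0.11 for Fga and 0.093 for F13b. Without the 4 saline arrays both were lost too, with an adjusted p of 0.11 for Fga and 0.15 for F13b.

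Serping1 encodes C1 inhibitor, a serpin that blocks the C1 proteases, kallikrein and factors XI and XII. Serping1 in KO livers stood at 14.52 and 14.57 with saline, 14.59 and 14.68 with AICAR, 14.54 and 14.55 with mineral oil, and 14.89 and 14.68 with CCl4. Serping1 in WT livers stood at 15.04 and 15.15 with saline, 15.28 and 15.08 with AICAR, 15.18 and 14.90 with mineral oil, and 15.13 and 15.21 with CCl4. No KO array reached the lowest WT array, although KO with CCl4 replicate 1 (14.89) and WT with mineral oil replicate 2 (14.90) were close. The difference was -0.49 ± 0.09 (71.0% of WT; limma adjusted p = 0.0087), and with median centring it was -0.30 (adjusted p = 0.11). The other inhibitors of this kind, Serpinc1 for antithrombin and Serpind1 for heparin cofactor II, did not pass (0.03 ± 0.15 and -0.12 ± 0.11). A second, dimmer Serpinc1 probe gave -0.48, and it differed widely from the used probe in the saline comparisons. It gave -1.88 for KO minus WT with saline, where the used probe gave 0.12. For AICAR against saline in KO it gave 3.27, against -0.37, and for mineral oil against saline 2.23, against -0.20. The cause was not tested.

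Protein C, with its cofactor protein S (Pros1), inactivates the factor V and VIII cofactors, and protein Z serves as cofactor to an inhibitor of factor X. Proc averaged 13.92 in KO and 14.19 in WT, a difference of -0.27 ± 0.10 that did not pass (adjusted p = 0.12). Proz averaged 11.23 in KO and 11.76 in WT, with 5 of 8 KO arrays below all WT arrays, and its -0.53 ± 0.16 missed the threshold (adjusted p = 0.069). Proz follows F7 and F10 directly on the chromosome, and F7 (0.05) and F10 (-0.06) had differences near 0. Pros1 had -0.13 ± 0.15 (adjusted p = 0.66).

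The plasminogen group showed no call in 4 genes. Plg for plasminogen, Serpinf2 for alpha-2-antiplasmin, Vtn for vitronectin and Hrg for histidine-rich glycoprotein had differences of -0.13 to -0.06, with adjusted p of 0.58 to 0.83. With median centring their median was 0.04 in place of -0.11.

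**Figure D2:**
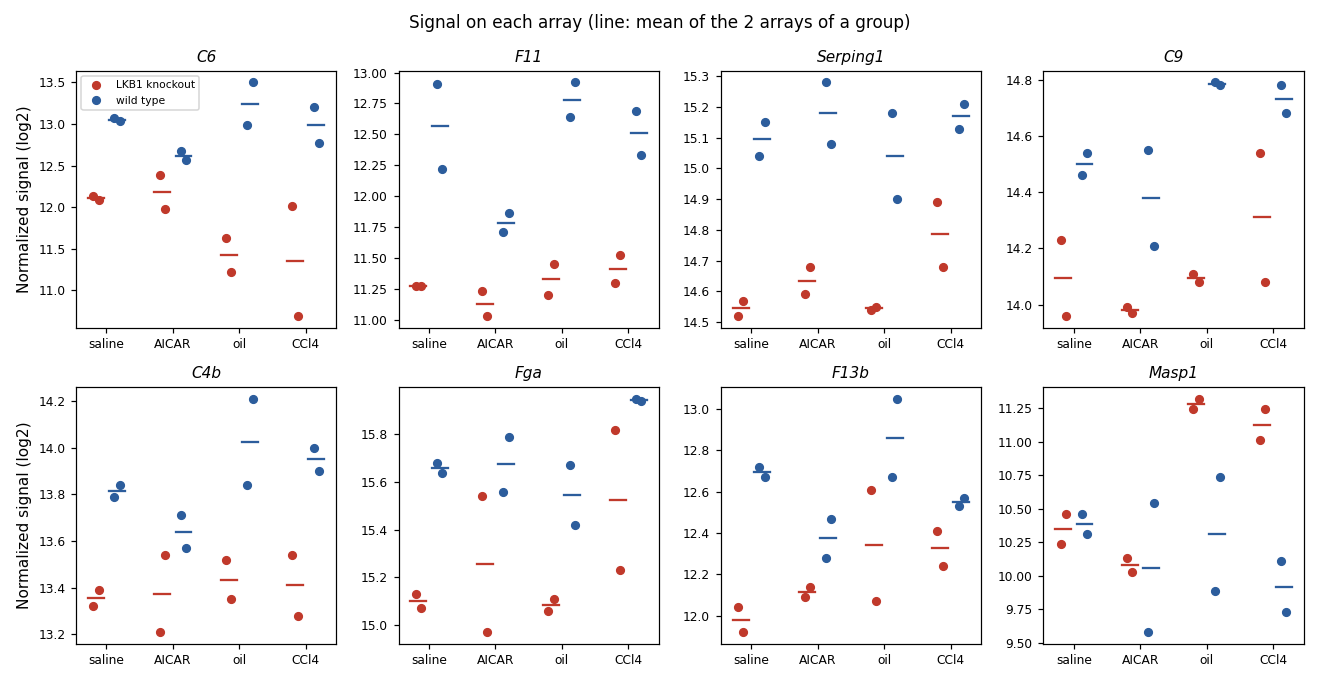
Log2 signal on each array (y axis) of the 7 genes that fell in KO and of Masp1, by agent, KO left of WT; each point is 1 array and each line the mean of 2 arrays, and the KO saline arrays were counted as 1 sample in the test. KO points lie below all WT points for C6, F11, Serping1 and C4b, and Masp1 is higher in KO with mineral oil and with CCl4.

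The membrane attack complex is built from C5b, C6, C7, C8 and many copies of C9. All 5 genes of this role measured (C6, the 3 chains of C8, and C9) had negative KO minus WT differences, 2 of them called, with a median of -0.43. With median centring 4 of 5 were negative, since C8g moved to 0.02. C6 in KO livers stood at 12.13 and 12.08 with saline, 12.38 and 11.98 with AICAR, 11.63 and 11.22 with mineral oil, and 12.01 and 10.69 with CCl4. C6 in WT livers stood at 13.07 and 13.03 with saline, 12.67 and 12.57 with AICAR, 12.99 and 13.50 with mineral oil, and 13.21 and 12.77 with CCl4. C6 was lower on every KO array than on any WT array, and the lowest value was KO with CCl4 replicate 2. It averaged 11.77 in KO and 12.98 in WT, which is 43.2% of the WT signal (-1.21 ± 0.20; 95% interval -1.65 to -0.77; limma adjusted p = 0.0038), and a second probe gave -1.19.

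C9 in KO livers stood at 14.23 and 13.96 with saline, 13.99 and 13.97 with AICAR, 14.11 and 14.08 with mineral oil, and 14.54 and 14.08 with CCl4. C9 in WT livers stood at 14.46 and 14.54 with saline, 14.55 and 14.21 with AICAR, 14.79 and 14.78 with mineral oil, and 14.78 and 14.68 with CCl4. C9, whose product forms the wall of the pore, was below all WT arrays on 6 of 8 KO arrays, and the other 2 were KO saline replicate 1 and KO CCl4 replicate 1. The difference was -0.48 ± 0.10 (71.9% of WT; limma adjusted p = 0.017). It was smaller in the other C9 probes, at -0.25 and -0.15, and the call was lost when the mean of the probes was used. Without WT AICAR replicate 1 the adjusted p was 0.051.

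The C8 chain genes did not pass. C8a averaged 11.79 in KO and 12.22 in WT (-0.43 ± 0.17; adjusted p = 0.16), C8b, its neighbour on the chromosome, 12.80 and 13.19 (-0.38 ± 0.25; adjusted p = 0.39), and C8g 14.49 and 14.64 (-0.16 ± 0.11; adjusted p = 0.41). C8b also varied most between the arrays of a group: KO with mineral oil gave 12.79 and 11.76, and KO with CCl4 gave 13.30 and 11.88.

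In the lectin and classical pathways, mannose-binding lectins and their proteases, or C1, cleave C4 and C2 to form a C3 convertase. C4b in KO livers stood at 13.32 and 13.39 with saline, 13.21 and 13.54 with AICAR, 13.52 and 13.35 with mineral oil, and 13.54 and 13.28 with CCl4. C4b in WT livers stood at 13.79 and 13.84 with saline, 13.71 and 13.57 with AICAR, 13.84 and 14.21 with mineral oil, and 14 and 13.90 with CCl4. No KO array of C4b reached the lowest WT array. The difference was -0.46 ± 0.11 (72.6% of WT; limma adjusted p = 0.022), and it was lost without WT CCl4 replicate 1, WT saline replicate 2 or WT AICAR replicate 1, with an adjusted p of at most 0.060. C4b has a near-identical neighbour, C4a, so each probe may bind both transcripts. C2, the protease of that convertase, averaged 13.15 in KO and 13.47 in WT (-0.32 ± 0.11; adjusted p = 0.098), and 5 of 8 KO arrays were below all WT arrays.

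Masp1, a protease of the lectin pathway, was the gene with the greatest positive difference, 0.54 ± 0.18, which did not pass (adjusted p = 0.086). Masp1 in KO livers stood at 10.24 and 10.46 with saline, 10.13 and 10.03 with AICAR, 11.24 and 11.32 with mineral oil, and 11.01 and 11.24 with CCl4. Masp1 in WT livers stood at 10.46 and 10.31 with saline, 9.58 and 10.54 with AICAR, 9.89 and 10.74 with mineral oil, and 10.11 and 9.73 with CCl4. All 4 KO arrays with mineral oil or CCl4 were above every WT array, while KO and WT overlapped with saline and with AICAR. The KO minus WT difference was 0.97 ± 0.33 with mineral oil and 1.20 ± 0.33 with CCl4, against -0.03 ± 0.41 with saline and 0.02 ± 0.33 with AICAR. The difference between the agent pairs was not tested.

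Mbl2, the gene for mannose-binding lectin C, was the other with a positive value over 0.1. Mbl2 in KO livers stood at 14.80 and 14.84 with saline, 14.58 and 14.81 with AICAR, 14.59 and 13.99 with mineral oil, and 14.59 and 14.09 with CCl4. Mbl2 in WT livers stood at 14.36 and 14.37 with saline, 14.08 and 14.10 with AICAR, 14 and 14.17 with mineral oil, and 14.52 and 14.10 with CCl4. On 6 of 8 KO arrays it was above all WT arrays, and the difference of 0.32 ± 0.13 did not pass (adjusted p = 0.16; 0.081 with median centring). Mbl1, for lectin A, had -0.13 ± 0.14, and Masp2, the lectin pathway protease that cleaves C4, had -0.02 ± 0.12. The third and dimmest Masp2 probe gave 0.38.

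Of the alternative pathway and regulators, Cfb encodes the protease factor B, Cfi encodes factor I, which cuts C3b and C4b, and C4bp encodes its cofactor C4b-binding protein. Cfb had -0.31 ± 0.14 (adjusted p = 0.19). Cfi had -0.27 ± 0.11 (adjusted p = 0.15), and 7 of 8 KO arrays were below all WT arrays, the exception being KO with CCl4 replicate 1. C4bp had -0.14 ± 0.12 (adjusted p = 0.51). Cfb and C2 lie next to each other, and their differences were alike in sign and size.

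Signals near saturation, taken as over 50% of the highest intensity of the array, affected 4 genes. The highest intensity on an array was between 68748 and 72186. Kng1 passed that mark on 16 of 16 arrays, with intensities of 51268 to 70600, or 72.8% to 100% of the array's highest. Vtn passed it on 14 arrays (32817 to 54080), Fga on 13 (27623 to 65583) and Serping1 on 4 (21146 to 41750). Such values can understate a difference. For Kng1 the SD within groups was 0.029, against a median of 0.25 over the 36 genes, and its second probe, with a mean intensity of 30240, gave -0.37 with mineral oil where the bright one gave -0.01. Without these 4 genes, 5 of 32 were called and the median stayed at -0.13.

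**Figure D3:**
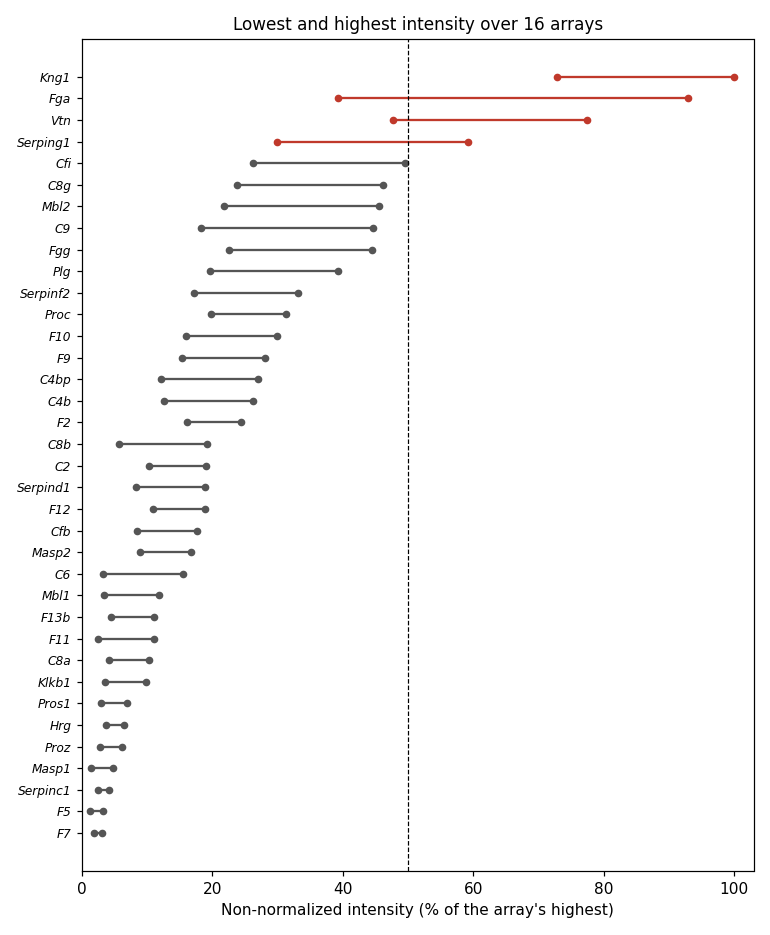
Lowest and highest non-normalized intensity of each gene over the 16 arrays, as a percentage of the highest intensity on the same array (x axis, linear); the dashed line is 50%. Kng1, Fga, Vtn and Serping1, in red, pass the line on at least 1 array, and Cfi ends just below it.

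**Figure D4:**
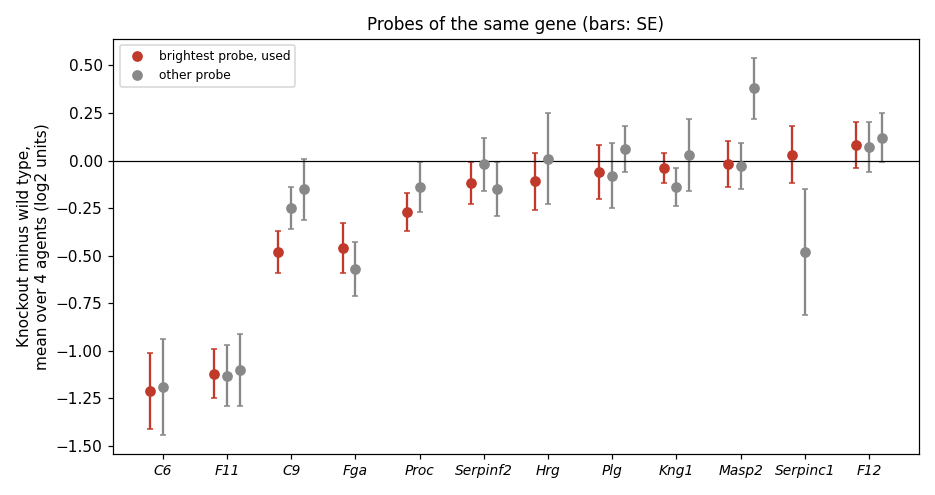
KO minus WT difference, averaged over the 4 agents (log2 units, y axis), for each probe of the genes with more than 1 kept probe; red is the brightest probe, grey the others, and bars are SE. The 3 F11 probes (-1.12, -1.13 and -1.10) and the C6 probes (-1.21 and -1.19) lie together, and the C9 probes spread between -0.48 and -0.15.

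Under each agent alone, the KO groups had 1 or 2 samples each, and few genes passed. With mineral oil, F11 and C6 fell, 2 of 36 against 1.2% of all tested features in either direction and 0.538% lower. F11 was -1.45 ± 0.25 (limma adjusted p = 0.022) and C6 was -1.82 ± 0.38 (limma adjusted p = 0.047), and neither call held in the fit on the mineral oil arrays alone. The C6 call was also lost in 12, and the F11 call in 3, of the 16 fits that left out 1 array. At an unadjusted p under 0.05 there were 10 of 36, against 15.7% of all. In all, 33 of 36 differences were negative there (24 of 36 with median centring), with a median of -0.32, against -0.01 over all features. Among genes that did not pass, C9 had -0.68 ± 0.20, Proc -0.61 ± 0.19, C8a -0.99 ± 0.33 and C8b -1.05 ± 0.47, with adjusted p of 0.13 to 0.31. Levels differed between arrays of these groups in the same direction for most genes: WT with mineral oil replicate 2 was above the gene's own mean for 33 of 36 genes, and KO with mineral oil replicate 2 was below it for 33 of 36. Without WT mineral oil replicate 2, 28 of 36 differences were negative with a median of -0.12, and without KO mineral oil replicate 2, 26 of 36 with a median of -0.24. Neither F11 nor C6 was called in those 2 fits.

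With CCl4, 0 of 36 passed by limma, against 1.29% of all tested features, and 6 had an unadjusted p under 0.05, against 11.7%. C6 was -1.65 ± 0.38 (adjusted p = 0.069), F11 was -1.10 ± 0.25 (adjusted p = 0.070), and both passed with the authors' normalized values. Masp1 had an adjusted p of 0.13. Negative differences numbered 21 of 36, and 14 of 36 with median centring. The KO arrays were unlike here, with replicate 1 above the gene's own mean for 30 of 36 genes and replicate 2 below it for 31 of 36. The sign of most genes rested on these 2 arrays: without KO CCl4 replicate 1, 32 of 36 differences were negative (median -0.30) and C6 passed, and without KO CCl4 replicate 2, 14 of 36 were negative (median 0.16). Without WT CCl4 replicate 2, 28 of 36 were negative.

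With saline, 0 of 36 passed by limma, against 0.132% of all tested features, and 3 had an unadjusted p under 0.05, against 4.78%. These were F11 (-1.29 ± 0.31; adjusted p = 0.24), F13b (-0.71 ± 0.26; adjusted p = 0.89) and Serping1 (-0.56 ± 0.22; adjusted p = 0.94). The KO group counted as 1 sample, so its spread was taken from the other groups. With AICAR, 0 of 36 passed by limma, against 7.51% of all tested features, and 3 had an unadjusted p under 0.05, against 23.8%. The share of all features called there fell to between 2.02% (without WT AICAR replicate 1) and 3.11% (without KO AICAR replicate 1) when any 1 of the 4 AICAR arrays was left out. Serping1 was -0.54 ± 0.18 (adjusted p = 0.093), F11 -0.66 ± 0.25 (adjusted p = 0.14) and Mbl2 0.61 ± 0.25 (adjusted p = 0.17). Serping1 had a KO minus WT difference between -0.56 and -0.38 under all 4 agents, while that of C6 ranged from -1.82 with mineral oil to -0.44 with AICAR.

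**Figure D5:**
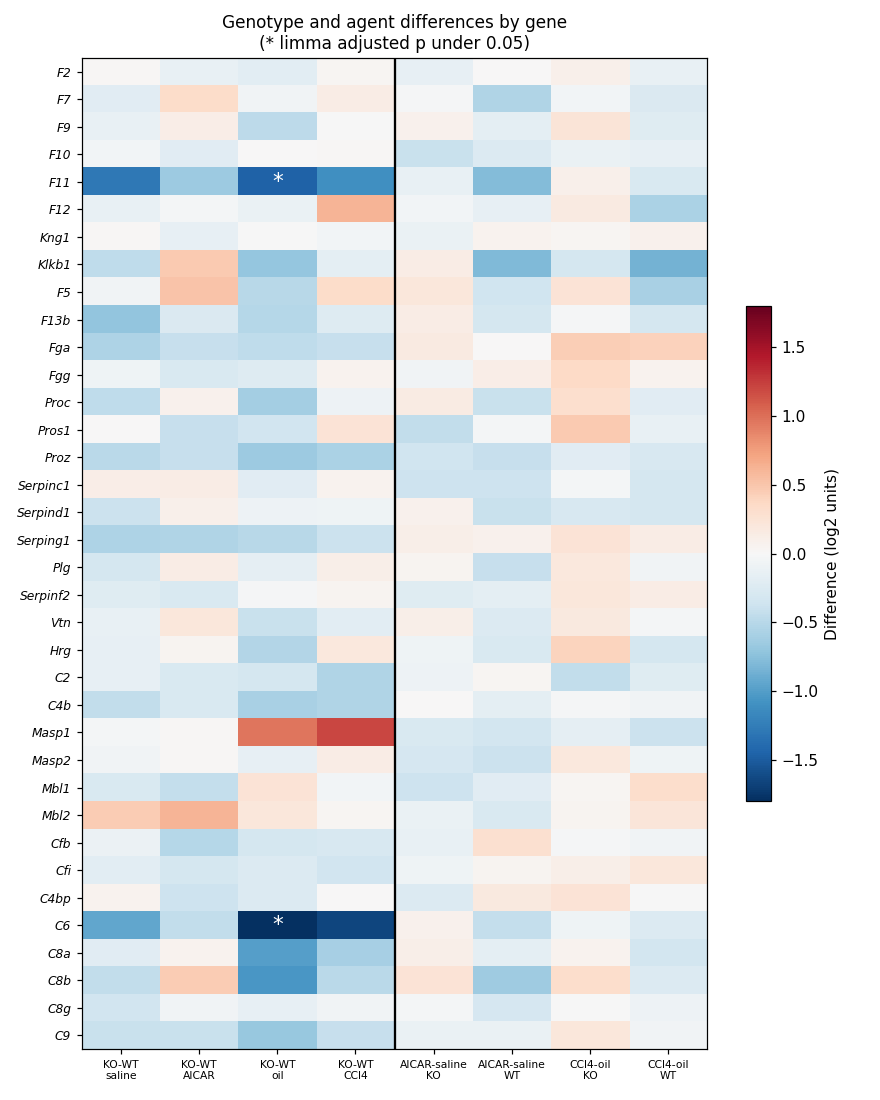
Difference of each gene (rows, by role) in log2 units: KO minus WT under each agent (left 4 columns) and agent minus vehicle in KO and in WT (right 4 columns); blue is lower, red higher, and a star marks a limma adjusted p under 0.05. Stars stand on F11 and C6 with mineral oil, and the agent columns hold none.

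With the probe used for each gene, neither agent moved any of these genes past the threshold. CCl4 against mineral oil gave 0 of 36 calls by limma in KO (0 at an unadjusted p under 0.05, against 3.55% of all) and 0 of 36 in WT (1 at an unadjusted p under 0.05, against 9.29%), and 0% of all tested features were called in either genotype. In KO the smallest p-values belonged to C2 (-0.44 ± 0.20), Fga (0.44 ± 0.24) and Pros1 (0.47 ± 0.28), each with an adjusted p of 1. C2 stood at 12.89 and 12.79 with CCl4 and 13.37 and 13.18 with mineral oil in KO. Pros1 stood at 12.30 and 11.74 with CCl4 and 11.59 and 11.51 with mineral oil in KO. The CCl4 and mineral oil arrays did not overlap for either gene, and neither passed. These genes were picked by their p-values, and with so few arrays a lack of overlap says little. The share of all features without overlap was not counted, here or in the agent and vehicle comparisons below.

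In WT, F12 was -0.57 ± 0.23 (adjusted p = 0.52), Klkb1 -0.85 ± 0.40 (adjusted p = 0.55) and F5 -0.58 ± 0.31 (adjusted p = 0.59). F12 stood at 12.66 and 13.09 with CCl4 and 13.36 and 13.54 with mineral oil in WT. Klkb1 stood at 11.22 and 11.57 with CCl4 and 11.59 and 12.89 with mineral oil in WT. F5 stood at 10.07 and 10.15 with CCl4 and 10.22 and 11.16 with mineral oil in WT. For Klkb1 and F5 the vehicle array WT replicate 2 was far above replicate 1, while for F12 the vehicle arrays were close. In WT 28 of 36 differences were negative (median -0.14), and in KO 13 of 36 (median 0.09), against all-feature medians of 0.01 in WT and 0.02 in KO. The direction in KO turned with single arrays: without KO CCl4 replicate 1, 25 of 36 were negative (median -0.11), without KO CCl4 replicate 2, 4 of 36 (median 0.36), and without KO mineral oil replicate 2, 19 of 36 (median -0.01). In WT the median was -0.03 without mineral oil replicate 2 and -0.05 without CCl4 replicate 2, with 22 of 36 negative in both fits, and it was -0.28 without mineral oil replicate 1.

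The difference between the CCl4 effects in KO and WT passed for 0 of 36 genes by limma (1 at an unadjusted p under 0.05, against 4.07%) and for 0% of all tested features. F12 gave 0.73 ± 0.32, Proc 0.52 ± 0.27 and F5 0.83 ± 0.44, each with an adjusted p of 1. This difference was positive for 31 of 36 genes, with a median of 0.23, and it uses the same 8 arrays in which WT mineral oil replicate 2 was high and KO mineral oil replicate 2 and KO CCl4 replicate 2 were low. Its direction did not hold without KO CCl4 replicate 1, where the median was -0.07 with 21 of 36 negative. The median was 0.05 without KO mineral oil replicate 2, 0.10 without WT mineral oil replicate 2 (13 of 36 negative in both fits), 0.13 without WT CCl4 replicate 2 and 0.42 without KO CCl4 replicate 2.

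AICAR against saline gave 0 of 36 calls by limma in KO, against 1.19% of all tested features, with 0 at an unadjusted p under 0.05, against 12.2%. Pros1 (-0.45 ± 0.34), F10 (-0.40 ± 0.30) and Mbl1 (-0.37 ± 0.32) had the smallest p-values, with adjusted p of 0.69 to 0.74. Pros1 stood at 11.06 and 11.40 with AICAR and 11.73 and 11.63 with saline in KO. F10 stood at 13.59 and 13.75 with AICAR and 14.05 and 14.08 with saline in KO. Mbl1 stood at 12.20 and 11.52 with AICAR and 12.19 and 12.28 with saline in KO. The arrays did not overlap for Pros1 and F10, and for Mbl1 AICAR replicate 1 lay just above 1 saline array. In WT there were 0 of 36 calls by limma, against 0.00882% of all tested features, with 1 at an unadjusted p under 0.05, against 10.6%. That 1 was F11 (-0.78 ± 0.25; limma adjusted p = 0.34), whose arrays lay apart, with 11.71 and 11.86 with AICAR and 12.91 and 12.22 with saline. Klkb1 had the greatest difference, -0.80 ± 0.40 (limma adjusted p = 0.51), and stood at 11.19 and 11.38 with AICAR and 12.05 and 12.11 with saline, with no overlap. Proc had -0.40 ± 0.19 and Serpind1 -0.40 ± 0.20, with adjusted p of 0.48 and 0.51. In WT 27 of 36 differences were negative, with a median of -0.24 against 0.02 over all features.

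The difference between the AICAR effects in KO and WT passed for 0 of 36 genes by limma (0 at an unadjusted p under 0.05, against 9.16%), against 0.3% of all tested features. For F11 it was 0.64 ± 0.40 (adjusted p = 0.66). Between the vehicles, mineral oil against saline averaged over genotypes, 0 of 36 passed by limma (0 at an unadjusted p under 0.05, against 10.4%), against 0% of all tested features. Mbl2 had -0.41 ± 0.20 (adjusted p = 0.52), Serpind1 0.31 ± 0.16 (adjusted p = 0.55) and Masp2 -0.31 ± 0.18 (adjusted p = 0.59). The vehicle arrays overlapped for Mbl2 and Serpind1 but not for Masp2.

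Over the 8 groups these genes varied a little less than others: the range of group means had a median of 0.63 log2 units for the 36 and 0.80 for all tested features, with a median SD within groups of 0.25 and 0.27. This was not tested. The widest ranges were those of C6 (1.90), F11 (1.65) and Masp1 (1.36).

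Other genes of clotting outside the list behaved in mixed ways in KO. Of 18 further coagulation and fibrinolysis genes tested, 3 fell and 1 rose. Serpina5, the gene for protein C inhibitor, was detected on 0 of 8 KO and 8 of 8 WT arrays, and was at least 4.59-fold lower in KO on the background-corrected scale (limma adjusted p = 0.00011; measured means 5.20 in KO and 7.91 in WT). Its size depended on that correction: the Serpina5 difference was -2.72, against -1.23 without background correction and -1.28 with the authors' normalized values. Gas6, a vitamin K dependent ligand of receptor kinases, was -0.54 ± 0.11 (adjusted p = 0.015), and F8, the factor VIII gene, -0.49 ± 0.10 (adjusted p = 0.015), both by limma. These means hide differences between agents. Gas6 was -1.52 with AICAR, -0.37 with mineral oil, -0.28 with CCl4 and 0.03 with saline. F8 was -1.13 with mineral oil and -0.85 with CCl4, but -0.07 with AICAR and 0.09 with saline. Kng2, a kininogen gene close in sequence to Kng1, rose by 0.40 ± 0.10 (limma adjusted p = 0.036). Its probe and that of Kng1 may each bind both transcripts.

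Factor VIII is made mainly by endothelial cells, and in the mean over agents F8 fell beside some of their markers. Of 10 sinusoidal endothelial markers, 9 had negative KO minus WT differences and 2, Pecam1 and Fcgr2b, fell, with a summed log2 signal of 12.94 to 14.06 in KO and 13.65 to 14.22 in WT. Of 10 stellate cell markers, 10 had a difference at or below 0 and 2 fell, Reln and Rgs5, with sums of 13.40 to 14.27 in KO and 14.17 to 14.86 in WT. Of 7 Kupffer cell markers, 7 were negative and 0 passed by limma (1 at an unadjusted p under 0.05), with sums of 13.12 to 14.36 in KO and 13.43 to 14.52 in WT. The cholangiocyte sum was 10.64 to 12.03 in KO and 8.87 to 10.27 in WT, over 5 of 9 markers, and Tff3 was the 1 that rose (3.71 ± 0.31). Tff3 was the largest part of this sum on every KO array. In KO with saline it stood at 11.87 and 11.88, against a sum of 12.01 to 12.03. Krt7, Sox9, Cldn7 and Bicc1 overlapped between genotypes, so the sum does not show a difference in cholangiocyte signal as a whole. The neutrophil sum was 10.65 to 13.16 in KO and 11.60 to 12.78 in WT, and the platelet sum 8.35 to 9.73 and 8.08 to 9.01. The erythroid sum was 13.28 to 14.80 in KO and 13.23 to 15.70 in WT. Its WT range was that of mineral oil, where Hba-a1 stood at 15.68 in replicate 1 and 13.14 in replicate 2. The part of other cell types in the values above was not tested.

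Of 15 further complement genes, 2 fell and 0 rose. C1s1, which encodes a protease of the C1 complex, averaged 9.59 in KO and 10.41 in WT (-0.82 ± 0.13; limma adjusted p = 0.0029), with no overlap. C4a was -1.09 ± 0.15 (limma adjusted p = 0.0014) and was detected on 6 of 8 KO and 8 of 8 WT arrays. The C4a difference was -0.46 without background correction and -0.49 with the authors' normalized values. Hc, the gene for C5, did not pass (-0.11), but its arrays differed widely within some groups. It stood at 9.59 and 12.84 in WT with saline and at 9.17 and 12.57 in KO with AICAR, while WT with mineral oil gave 12.50 and 12.99. The cause was not tested.

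Among 15 liver transcription factors and acute phase regulators, Nr1h4, the bile acid receptor FXR, fell (-0.76 ± 0.15; limma adjusted p = 0.0094) and Stat3 rose (0.49 ± 0.13; limma adjusted p = 0.048). By agent, the Stat3 difference was 0.60 with saline, 0.56 with CCl4 and 0.76 with AICAR, but 0.02 with mineral oil. Hnf4a had -0.01 ± 0.18 and Cebpa 0.04 ± 0.19, neither passing. Among 17 acute phase genes, Saa4 (-1.68 ± 0.17), Serpina3n (-0.61 ± 0.16) and Crp (-0.53 ± 0.10) fell and Fgl1, a fibrinogen-related gene, rose (0.89 ± 0.18), with limma adjusted p of 0.00018, 0.039, 0.0084 and 0.012. The Serpina3n call was lost with median centring (adjusted p = 0.15). Of 13 other secreted hepatocyte proteins, 1 changed: Itih2, a heavy chain of inter-alpha-trypsin inhibitor, rose by 0.84 ± 0.14 (limma adjusted p = 0.0034).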

How the data were processed

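Liver RNA of 16 arrays was read as a deposited table of non-normalized intensity and detection p-values, both made by the authors; per the submitters' processing notes they used GenomeStudio. A normalized intensity table that the authors deposited served as an alternative. In R 4.3.3 with limma 3.58.1, background was corrected by normexp (neqc, offset 16, negative controls inferred from detection p), followed by quantile normalization and log2. Probes detected at p under 0.05 on at least 2 arrays were kept (15411), and the brightest probe of a gene was used. Symbols came from the platform annotation, with 1 symbol for 23978 probes, several for 0 and none for 1719.

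A group-means model with empirical Bayes moderation (7 residual and 3.74 prior degrees of freedom) gave 12 comparisons over 15 samples, with two-sided p-values adjusted by Benjamini and Hochberg over 11338 features. Only 2 arrays a group limit the precision of every value. The fit was tested on simulated data. The members, lists and tests were chosen with earlier results of these data known. By the naming rule, any member may be named. Values on every array are given for called members and for those with the smallest p where none was called, and Stk11 is always given. From other lists up to 4 called genes per comparison are named, here for the mean KO effect only. Hnf4a, Cebpa, Hc and some cell type markers were named outside the rule, after their values were seen. Promoters are those of a set on GRCm38.p6, whose starts differ from the RefSeq gene starts for F11, C6 and F13b. Alternatives were other background and scaling choices, filters, probe means, array weights, spread estimates, samples and the replicate number as a block.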

Additional observations from a re-analysis of the deposited data

Results flagged for a closer look

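The arrays of Proc and Serpind1 moved one way in KO and the other way in WT under the same agent. They were not the only ones. With AICAR the effects in KO and WT were 0.13 and -0.80 for Klkb1 and 0.25 and -0.64 for C8b. They were 0.21 and -0.36 for F5, and 0.13 and -0.32 for F13b. With CCl4 the effects in KO and WT were 0.40 and -0.32 for Hrg and 0.25 and -0.58 for F5. They were 0.32 and -0.24 for C8b, and 0.16 and -0.57 for F12. The test of the difference itself did not pass in any of these cases, by limma.

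Proc, the gene for protein C, had a CCl4 effect of 0.30 in KO and -0.21 in WT, a difference of 0.52 ± 0.27 (SE; adjusted p = 1). Its log2 signals in KO were 14.17 and 13.74 with CCl4 and 13.71 and 13.60 with mineral oil, and in WT they were 13.96 and 14.13 with CCl4 and 14.17 and 14.35 with mineral oil. With AICAR the Proc effect was 0.15 in KO and -0.40 in WT, a difference of 0.54 ± 0.30 (adjusted p = 0.62). Proc in KO stood at 14.10 and 14.11 with AICAR and 13.93 and 14 with saline, and in WT at 13.98 and 14.08 with AICAR and 14.42 and 14.43 with saline.

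Serpind1, the gene for heparin cofactor II, had an AICAR effect of 0.08 in KO and -0.40 in WT, a difference of 0.48 ± 0.32 (adjusted p = 0.69). Serpind1 in KO stood at 12.95 and 12.87 with AICAR and 12.84 and 12.82 with saline, and in WT at 12.93 and 12.70 with AICAR and 13.22 and 13.22 with saline. The KO saline arrays count as 1 sample.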

How the results depend on the processing

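For the 7 called genes, and for those with the smallest p-values where none was called, the sign of the difference held under every alternative run. Among the other genes median centring turned small differences, so that 21 in place of 30 of 36 were negative, and single CCl4 or mineral oil arrays turned the sign of the median of the 36 in the CCl4 comparisons that use KO arrays. The KO calls for F11 and C6 averaged over agents were kept in all of them; the 7 calls ranged from 3 to 8 when 1 array was left out (3 without WT AICAR replicate 1, namely F11, Serping1 and C6, and 4 without WT CCl4 replicate 1 or WT saline replicate 2). Median centring left 2. With both KO saline arrays as samples, 1616 features were called in place of 1045, and 10 members. Over all features the count was 635 to 1205 when 1 array was left out. With 1 array left out it was 32 to 172 for KO against WT with mineral oil, 2 to 17 with saline, 41 to 179 with CCl4 and 229 to 1095 with AICAR (229 to 353 without an AICAR array), and 54 to 159 for AICAR against saline in KO. Over the other alternatives it was 17 to 243 for KO against WT with mineral oil (136 as reported), 0 to 94 with saline (15), 45 to 222 with CCl4 (146) and 741 to 1280 with AICAR (851). It was 102 to 651 for AICAR against saline in KO (135), 0 to 219 in WT (1) and 17 to 118 for their difference (34). Mineral oil against saline gave 0 to 60 (0). Without the saline arrays, an alternative added after seeing the data, 5 members were left. With mineral oil the 2 calls became 1 with median centring, without the probe filter or with the mean of a gene's probes, 0 with array weights or the compared arrays only, 3 with the authors' normalized values (Serping1 joined them), and 0 to 2 when 1 array was left out (0 without WT oil replicate 2 or either KO oil array). With CCl4 the 0 calls became 2 (F11 and C6) without background correction, with the authors' values, with trended spread or with both KO saline arrays, and 0 to 1 when 1 array was left out (C6 without KO CCl4 replicate 1). With AICAR they became 1 under the first 3 of these, and with saline 1 with both KO saline arrays. The causes were not tested. Replicate numbers did not pair the samples across all groups (correlation of deviations over 0.1 in 6 of 21 pairs of groups, median 0). The highest correlation, 0.48, was between KO with mineral oil and KO with CCl4. The lowest, -0.40, was between KO and WT with mineral oil. With the replicate number as a block, 6 members were called in place of 7 (F13b, adjusted p = 0.054) and 2 with mineral oil, and no other count of members changed. The limits are 2 arrays a group, and Kng1 near the top of the scale.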
